A study of Mus musculus with 6 samples.

Results

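Molecular chaperones bind unfolded or stretched proteins and keep them from aggregating. ATP-driven machines of the HSP70 and HSP90 families refold or hand on their clients, helped by J-domain partners that deliver clients and by nucleotide exchange factors that release them, whereas small heat shock proteins hold clients without ATP. Cells under heat or proteotoxic stress switch on the inducible members through the transcription factor HSF1, while heart muscle carries a standing supply of small heat shock proteins and of BAG3, the co-chaperone that directs damaged filamin and other sarcomere proteins to autophagy. The 10 genes described here were chosen by symbol: the inducible HSP70 genes Hspa1a and Hspa1b, the constitutive HSP70 gene Hspa8, the HSP90 gene Hsp90aa1, the HSP110 gene Hsph1, the J-domain gene Dnajb1, the small heat shock genes Hspb1, Hspb7 and Cryab, and Bag3. All 10 of 10 were found among the 24421 genes of the table.

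Poly(A) RNA was sequenced from embryonic hearts of C57/Bl6 mice at E18.5, in 3 libraries labelled wildtype and 3 labelled Gas2l3 -/-. Both groups share strain, tissue and stage, and no treatment or other allele is named. Gas2l3 encodes a protein that links actin and microtubules, and the series asks what its deletion does to cardiomyocyte division. The labels say neither which exons were removed nor whether each library came from its own embryo, so p-values measure only the spread between these samples.

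Between 3414257 and 7732674 reads per library lay behind the values. The targeted gene Gas2l3 did not separate the groups: in wildtype replicates 1, 2 and 3 it stood at 10.3, 4.12 and 2.48 FPKM (reads scaled for transcript length and library), against 4.03, 2.99 and 3.06 FPKM for the Gas2l3 -/- replicates. Wildtype replicate 3 lay below all 3 Gas2l3 -/- libraries. As deposited, the level of this gene therefore gives no check of the genotypes, and the groups below are those of the labels. Its transcript has 41.7% GC. Taking out the GC and length trends, as described below, moved Gas2l3 from −0.47 (SE 0.44) to −0.65 (SE 0.23), Gas2l3 -/- minus wildtype on the log2 scale. In that setting limma gave it an unadjusted p of 0.0226, and it did not pass after adjustment over all tested genes. All 8 cardiomyocyte markers were above 10 FPKM in every library, with Tnnt2 at 6795 FPKM in wildtype and 6698 FPKM in Gas2l3 -/- hearts, and of 8 skeletal muscle markers Myog, Myh3, Myh8 and Actn3 stayed under 1 FPKM on average. The other 4 were present: Ckm, which heart muscle also expresses, averaged 2132 FPKM in wildtype and 1247 FPKM in Gas2l3 -/- hearts, Acta1 54.2 and 58.5 FPKM, Mylpf 23.1 and 12.3 FPKM, and Tnnt3 2.62 and 0.90 FPKM. Wildtype replicate 3 stood apart: its deviations from the gene means correlated with GC content at 0.702 over 11709 genes, against −0.481 to −0.0709 in the other 5 libraries, and its mean correlation with the other libraries was 0.899 against 0.935 to 0.957. Fold changes of the tested members that were highest or lowest in this library are also given without it.

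The promoters were searched for short exact forms of the letters that HSF1 is known to bind. HSF1 recognises inverted repeats of GAA, and the search was for GAANNTTC and TTCNNGAA, each of which reads the same on both strands, in the 250 bases before each RefSeq start (GRCm38.p6, the build also called mm10). RefSeq rows were found for 7 of the 10 members, and 4 of these held a match: Hspa1a, Hspa1b, Hsph1 and Hspb1. No match was found in the windows of Dnajb1, Hspb7 and Bag3. Of 32851 RefSeq promoters of that length, 12.8% held at least 1 match and 1.46% held more than 1. A match describes letters in a window and not a bound site. Likewise, a window without a match does not show that a gene lacks an HSF1 site, since only these exact forms were searched. Hspa8, Hsp90aa1 and Cryab had no row. The first pair below shows that both inducible HSP70 genes start from almost the same letters, and the second pair sets a small heat shock gene with matches beside one without; capitals mark the matches.
Hspa1a, chr17:34972157-34972406, minus strand: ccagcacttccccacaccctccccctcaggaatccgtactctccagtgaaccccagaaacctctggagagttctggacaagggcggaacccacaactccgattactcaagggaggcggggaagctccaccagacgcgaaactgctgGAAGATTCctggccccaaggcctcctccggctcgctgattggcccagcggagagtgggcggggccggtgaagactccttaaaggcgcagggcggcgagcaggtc
Hspa1b, chr17:34959239-34959488, minus strand: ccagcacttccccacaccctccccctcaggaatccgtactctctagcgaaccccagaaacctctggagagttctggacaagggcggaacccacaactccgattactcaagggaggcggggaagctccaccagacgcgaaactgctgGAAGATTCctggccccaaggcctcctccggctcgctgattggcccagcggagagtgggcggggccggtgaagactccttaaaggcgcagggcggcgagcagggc
Hspb1, chr5:135887669-135887918, plus strand: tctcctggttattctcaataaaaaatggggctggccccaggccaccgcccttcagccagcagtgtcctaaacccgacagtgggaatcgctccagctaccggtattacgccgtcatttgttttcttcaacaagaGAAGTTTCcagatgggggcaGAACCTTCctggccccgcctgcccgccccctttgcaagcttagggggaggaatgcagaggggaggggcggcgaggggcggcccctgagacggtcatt
Hspb7, chr4:141420529-141420778, plus strand: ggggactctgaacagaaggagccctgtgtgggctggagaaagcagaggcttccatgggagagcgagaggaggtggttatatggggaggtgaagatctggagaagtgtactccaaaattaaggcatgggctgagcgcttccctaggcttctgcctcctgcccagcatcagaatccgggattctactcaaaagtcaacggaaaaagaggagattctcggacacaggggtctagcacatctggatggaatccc

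The promoters of Hspa1a and Hspa1b were identical at 247 of 250 positions, with the differences C44T, T47C and T249G counted from the 5′ end, Hspa1a first. Each held a single match beginning 104 bases before the start. Hspb1 held matches that began 117 and 97 bases before its start. The copies are also close over the transcript: 52.7% of all 75-base windows of the Hspa1a transcript occur letter for letter in Hspa1b. The 75 bases were a chosen length and were not taken from the reads. A read wholly within such a stretch cannot be assigned to either copy by its own letters. How such reads were counted is not given in the sources used here.

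The 10 genes spanned a wide range of levels in these hearts. Cryab, encoding the lens and muscle chaperone alpha-B crystallin, had the highest mean over the 6 libraries at 708 FPKM, followed by Hspb7, the cardiac small heat shock gene, at 618 FPKM. Hspa8, which serves protein folding in unstressed cells, stood at 359 FPKM and Hspb1, the actin-associated HSP27 gene, at 278 FPKM. Hsp90aa1 at 50.3 FPKM, Bag3 at 34.8 FPKM, Dnajb1 at 18.7 FPKM and Hsph1 at 12.5 FPKM formed the middle of the order. Hspa1a and Hspa1b closed it at 0.828 and 0.822 FPKM. Cryab was above Hspb7 in 6 of 6 libraries although their ranges overlapped, and Hspa8 was above Hspb1 in 5 of 6. The ranges also overlapped between Hsp90aa1 and Bag3 and between the HSP70 copies, and were separate at every other step of the order. Together the members made up 0.312% to 0.399% of a library's summed FPKM.

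**Figure D1:**
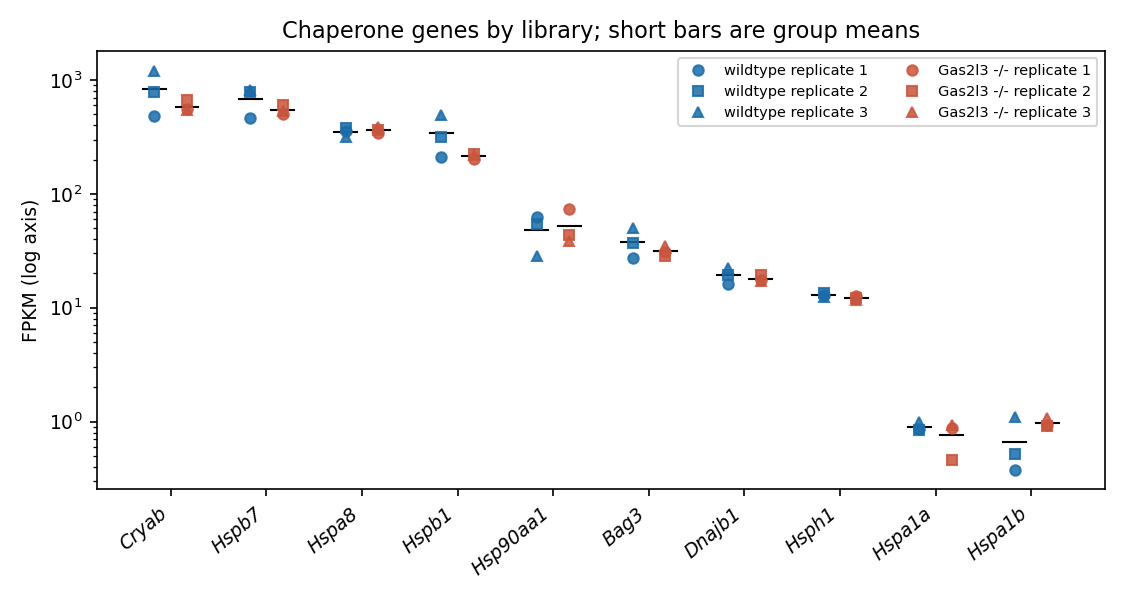
FPKM on a log axis of the 10 chaperone genes in 3 wildtype (blue) and 3 Gas2l3 -/- (red) libraries, with the replicate number as the marker shape and a short bar at each group mean. The muscle small chaperones and Hspa8 lie above 200 FPKM, the HSP70 copies near 1 FPKM, and the groups overlap for each gene.

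The comparison asked whether any chaperone gene differed between Gas2l3 -/- and wildtype hearts. None passed: limma on log2(FPKM + 0.5), adjusted by Benjamini-Hochberg over all 12121 genes with 1 FPKM or more in at least 3 libraries, called 0 of the 8 tested members, against 0% of all tested genes, and 0 of the 8 had an unadjusted p under 0.05. Of all tested genes, 1.35% had such an unadjusted p with a lower and 1.9% with a higher mean, 394 genes in all. That count ran from 172 (without Gas2l3 -/- replicate 3) to 1472 (without wildtype replicate 1) with 1 library left out. Without wildtype replicate 1, 1 member, Hspb1, had an unadjusted p under 0.05 (adjusted p = 0.401, limma). Voom on the recovered reads also called 0 genes, with 375 at an unadjusted p under 0.05. Hspa1a and Hspa1b did not reach the minimum and were not tested by limma. The added 0.5 pulls the fold changes of weakly expressed genes toward 0. The groups overlapped for all 10 members, whereas 4.74% of the tested genes lay wholly lower and 5.02% wholly higher in the Gas2l3 -/- libraries. Means were lower in the Gas2l3 -/- group for 6 of the 8 tested members, beside 51% of all tested genes, and the median log2 fold change of the 8 was −0.16, beside −0.0089 over all tested genes. The members' median was −0.32 without wildtype replicate 1 and −0.096 without wildtype replicate 3. With every library rescaled to a common total the members' median was 0.018, beside 0.15 over all tested genes, and 4 of the 8 had lower means, since Dnajb1 and Hsph1 turned to 0.093 and 0.096.

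**Figure D2:**
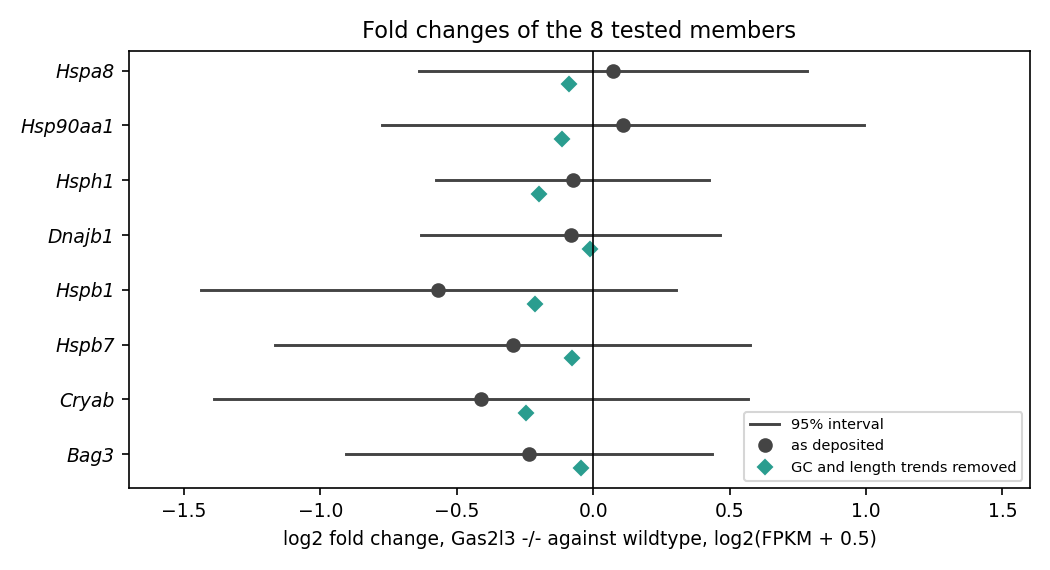
Log2 fold change on log2(FPKM + 0.5), Gas2l3 -/- against wildtype, of the 8 tested members as deposited (circles, with the 95% interval from limma) and after the GC and length trends were taken out (diamonds). Every interval spans 0, and the values of the small heat shock genes lie nearer 0 once the trends are removed.

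Few reads were counted for the inducible HSP70 genes. Hspa1a (chromosome 17, 34969190 to 34972156) was at 0.855, 0.843 and 0.994 FPKM in the wildtype replicates (1, 2 and 3, in that order) and at 0.882, 0.463 and 0.928 FPKM in the Gas2l3 -/- replicates, on 7 to 18 reads per library. Hspa1b, the neighbouring copy (34956436 to 34959238), was at 0.378, 0.513 and 1.11 FPKM in wildtype and 0.933, 0.922 and 1.08 FPKM in Gas2l3 -/- libraries, on 4 to 21 reads. The low Hspa1b values are those of wildtype replicates 1 and 2, and wildtype replicate 3 lies above all Gas2l3 -/- libraries. Reads may be shared between the copies, and their sum depends less on how such reads were split. If shared reads were left out of the counts, the copies and their sum are all too low. The sum was 1.56 ± 0.469 FPKM (SD, n = 3) in wildtype and 1.74 ± 0.318 FPKM in Gas2l3 -/- hearts. This difference did not pass an exact permutation test (two-sided p = 0.7, where 3 against 3 cannot go below 0.1). Exact p was 0.6 for Hspa1a and 0.4 for Hspa1b alone. Both copies were highest in wildtype replicate 3. On log2(FPKM + 0.5) the difference of means, given without a test, was −0.17 for Hspa1a and −0.12 without that library. For Hspa1b it was 0.39, and 0.65 without that library. An exon of Hspa1a also overlaps a gene model on the opposite strand, and whether strand was used in counting is not given in the sources used here.

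Hspa8 (chromosome 9, 40800984 to 40810087), which unlike those copies is expressed without stress, was at 356, 379 and 315 FPKM in wildtype replicates 1, 2 and 3. In the Gas2l3 -/- replicates it was at 347, 369 and 386 FPKM. The highest library exceeded the lowest by a factor of 1.22, and limma gave a log2 fold change of 0.071 with an SE of 0.31 and an adjusted p of 0.985. It was −0.0025 without wildtype replicate 3, the lowest library, and −0.088 after the GC and length trends were taken out. Hspa8 exceeded the sum of Hspa1a and Hspa1b by factors of 150 to 289 across the libraries, a sum on 13 to 39 reads per library. No 75-base window of either copy occurs in Hspa8. These factors are therefore too high if reads shared by the copies were left out. Annotated small nucleolar RNA genes on the same strand overlap Hspa8 exons.

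Hsph1 (chromosome 5, 149614287 to 149636376), the HSP110 gene whose product exchanges nucleotide on HSP70, was the most even member. It stood at 12.8, 13.4 and 12.4 FPKM in wildtype and at 12.7, 12.3 and 11.6 FPKM in Gas2l3 -/- replicates, a factor of 1.16 between the highest and lowest library. Its log2 fold change was −0.075 with a 95% interval of −0.57 to 0.42 (adjusted p = 0.973, limma), and −0.20 after the GC and length trends were taken out. The Gas2l3 -/- library was the lower one in 3 of 3 pairs of the same replicate number, as also for Hspb1. It was lower in 2 of 3 pairs for Hspa1a, Hspa8, Hspb7, Cryab and Bag3, and in 1 of 3 for Hspa1b, Hsp90aa1 and Dnajb1. The share of all tested genes with 3 of 3 was not counted. Dnajb1 (chromosome 8, 83608193 to 83612653), the J-domain partner that HSF1 is known to induce, stood at 16.2, 19.4 and 22.2 FPKM in wildtype and at 17.6, 19.5 and 17.2 FPKM in Gas2l3 -/- replicates. Its log2 fold change was −0.082 with a 95% interval of −0.63 to 0.47 (adjusted p = 0.973, limma), and 0.023 without wildtype replicate 3.

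Hsp90aa1 (chromosome 12, 110690605 to 110702728), the stress-inducible cytosolic HSP90, varied more within the groups than between them. Wildtype replicates 1, 2 and 3 had 63.3, 54.3 and 28.5 FPKM, and the Gas2l3 -/- replicates 73.1, 43.6 and 38.8 FPKM. In both groups replicate 1 was the highest and replicate 3 the lowest. Limma gave a log2 fold change of 0.11 with an SE of 0.39 and an adjusted p of 0.98. Its sign turned without wildtype replicate 3 (−0.23), without Gas2l3 -/- replicate 1 (−0.16) and after the GC and length trends were taken out (−0.11). The constitutive relative Hsp90ab1 was the main HSP90 transcript, exceeding Hsp90aa1 by factors of 8.58, 13.2 and 27.4 in wildtype replicates 1, 2 and 3 and of 8.6, 11.5 and 16.9 in the Gas2l3 -/- replicates.

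On the values as deposited, Hspb1, Cryab and Hspb7 had the lowest fold changes of the tested members, none of them called. This order did not hold after the GC and length trends were taken out, when Hspb7 (−0.078) lay above Hsph1 (−0.20), nor without wildtype replicate 3, when Cryab (−0.090) lay above Hsp90aa1 (−0.23). Hspb1 (chromosome 5, 135887919 to 135889563) was at 211, 315 and 495 FPKM in the wildtype replicates (1, 2 and 3, in that order) and at 201, 227 and 221 FPKM in the Gas2l3 -/- replicates. Wildtype replicates 2 and 3 lay above all Gas2l3 -/- libraries and wildtype replicate 1 lay within their range. The means were 340 ± 144 FPKM (SD, n = 3) and 216 ± 13.2 FPKM, a log2 fold change of −0.57 with a 95% interval of −1.44 to 0.30 (adjusted p = 0.966, limma). The Gas2l3 -/- library was lower in 3 of 3 pairs of the same number, which held for Hsph1 and no other member. The differences for Hspb1 were −0.067, −0.47 and −1.16 on the log2(FPKM + 0.5) scale. The log2 fold change was −0.26 without wildtype replicate 3, −0.87 without wildtype replicate 1 and −0.21 after the GC and length trends were taken out.

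Cryab (chromosome 9, 50751325 to 50756636), which binds desmin and titin and is mutated in desmin-related myopathy, had the widest wildtype spread of the 8 tested members, at 486, 794 and 1212 FPKM in replicates 1, 2 and 3. The Gas2l3 -/- replicates had 553, 664 and 542 FPKM. Wildtype replicate 1 was the lowest of all 6 libraries and replicate 3 the highest, so the wildtype values enclosed those of Gas2l3 -/- hearts. Limma gave a log2 fold change of −0.41 with an SE of 0.43 and an adjusted p of 0.966, which became −0.090 without wildtype replicate 3 and −0.75 without wildtype replicate 1. Its neighbour Hspb2 lies head to head with it on the opposite strand, with overlapping exons, and reads there cannot be told apart if strand was ignored. Hspb2 was at 51.7, 87.4 and 200 FPKM in wildtype and at 60.3, 66.2 and 53.5 FPKM in Gas2l3 -/- replicates, the same order of libraries as Cryab. The ratio of Cryab to Hspb2 was 8.19 ± 1.84 (SD, n = 3) in wildtype and 9.77 ± 0.529 in Gas2l3 -/- hearts (exact permutation test, two-sided p = 0.2, smallest possible 0.1).

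Hspb7 (chromosome 4, 141420779 to 141425311), which is needed for actin thin filament assembly in the heart, was at 461, 782 and 827 FPKM in wildtype and at 505, 601 and 531 FPKM in Gas2l3 -/- replicates. Again wildtype replicate 1 was below and replicates 2 and 3 above every Gas2l3 -/- library. Limma gave a log2 fold change of −0.30 with an SE of 0.38 and an adjusted p of 0.966, which became −0.14 without wildtype replicate 3 and −0.56 without wildtype replicate 1. Bag3 (chromosome 7, 128523616 to 128546981) was at 27.3, 36.8 and 50.3 FPKM in wildtype and at 31.0, 28.5 and 34.8 FPKM in Gas2l3 -/- replicates. Here too the wildtype libraries enclosed the others, and limma gave a log2 fold change of −0.24 with an SE of 0.29 and an adjusted p of 0.966, which became −0.017 without wildtype replicate 3 and −0.45 without wildtype replicate 1. In bulk tissue, fewer cells of a type and less RNA per cell cannot be told apart.

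Cell type markers and base composition are set beside these members. The 8 cardiomyocyte markers summed to 20650 to 27030 FPKM in wildtype and 18930 to 20260 FPKM in Gas2l3 -/- libraries, with lower means for 7 of 8, 0 called and a median log2 fold change of −0.47. None of the 8 was at 0, whereas Hba-a1, 1 of the 4 erythroid markers, had 0 reads in every library. Of the other cell types a heart can hold, median log2 fold changes of the marker lists were −0.82 for skeletal muscle (4 of 8 tested), −0.082 for smooth muscle, 0.070 for endothelium, 0.35 for fibroblasts, 0.23 for macrophages, −0.037 for epicardium and 0.42 for erythroid cells, with 0 genes called in each. An unadjusted p under 0.05 (limma) was found for Tnnt3 (−1.14), Lum (0.94) and Lyz2 (1.43), beside 1.35% lower and 1.9% higher of all tested genes. Without the GC and length trends the medians were −0.32 for cardiomyocytes, −0.69 for skeletal muscle, −0.11 for smooth muscle and 0.082 for endothelium. They were 0.19 for fibroblasts, 0.32 for macrophages, 0.031 for epicardium and 0.52 for erythroid cells. The part of these cell types in the small chaperone values was not tested. Of the 5 tested members with more than 50% GC (Dnajb1, Cryab, Bag3, Hspb7 and Hspb1), 5 were highest in wildtype replicate 3, the library with the steepest GC trend, a split chosen after the values were seen. Of the 3 under 50%, Hsp90aa1 and Hspa8 were lowest there. After the GC and length trends were taken out, Cryab alone of those 5 was still highest in wildtype replicate 3, while Hspb7 became lowest there. Hspa8 and Hsph1, both under 50% GC, became highest in that library. The log2 range over the 6 libraries narrowed for 6 of the 8 members, from 1.32 to 0.51 for Cryab and from 1.34 to 0.76 for Hsp90aa1, and widened for Hsph1 from 0.20 to 0.50 and for Hspa8 from 0.29 to 0.31.

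**Figure D3:**
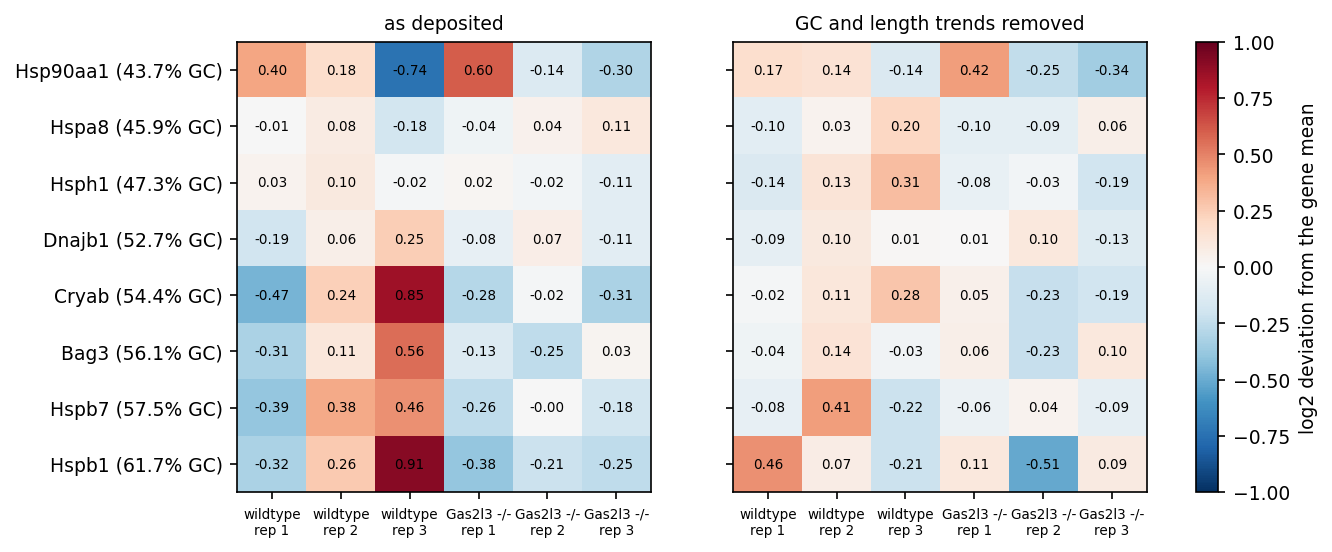
Deviation of log2 expression from each gene's mean (colour and printed value) for the 8 tested members, ordered by the GC content of the transcript, in the 6 libraries as deposited (left) and after the trends were taken out (right). As deposited, wildtype replicate 3 is low for Hsp90aa1 and high for the 5 genes over 50% GC.

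On the values as deposited, the small chaperones, Bag3 and Dnajb1 followed each other across the 6 libraries. Pearson's r over log2(FPKM + 0.5) was 0.968 between Cryab and Hspb1, 0.94 between Cryab and Hspb7, 0.969 between Cryab and Dnajb1 and 0.883 between Cryab and Bag3, while that of Hsp90aa1 with the same genes ran from −0.732 with Bag3 to −0.615 with Hspb7. These are descriptions over 6 libraries that share the GC trends above. After the GC and length trends were taken out, these genes no longer peaked in the same library. Cryab was then highest in wildtype replicate 3, Hspb1 in wildtype replicate 1 and Hspb7 and Bag3 in wildtype replicate 2. Dnajb1 was then highest in Gas2l3 -/- replicate 2. The tested genes outside the lists whose profile was most like the mean of the centred log2 profiles of Hspa1a, Hspa1b, Hsph1 and Dnajb1 were Inpp5d (r = 0.991), Pomgnt2 (r = 0.99) and Leng9 (r = 0.989) over the same 6 libraries, each with over 50% GC and highest in wildtype replicate 3. That mean is not a profile the 4 genes share: r was 0.0141 between Hspa1a and Hspa1b and −0.72 between Hspa1b and Hsph1, and the HSP70 copies rest on 4 to 21 reads a library.

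Other genes of the chaperone network were not called either. Beside the members, 72 genes in 8 lists covered the HSP70, HSP90, J-domain, small heat shock, BAG, HSF, chaperonin and filamin-autophagy groups. Of these, 68 were tested and 0 were called in either direction (limma, adjusted p from 0.966 upward), with 0 at an unadjusted p under 0.05, higher means for 38, lower means for 30 and a median log2 fold change of 0.033, which turned to −0.063 after the GC and length trends were taken out. The groups did not overlap for 3 of the 68, the HSP90 co-chaperones Stip1 and Unc45b lower and the chaperonin subunit Cct5 higher, beside 9.76% of all tested genes; Stip1 and Cct5 were picked for this separation after their values were seen. Unc45b, which folds the myosin head in muscle, was at 96.3, 90.3 and 108 FPKM in wildtype and at 77.2, 60.6 and 79.3 FPKM in Gas2l3 -/- replicates, which limma put at a log2 fold change of −0.44 with an SE of 0.27 and an adjusted p of 0.966.

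Among the other small heat shock genes, Hspb6 and Hspb2 had lower and Hspb3 and Hspb8 higher log2 means in Gas2l3 -/- hearts. Hspb6, the HSP20 gene of muscle, was at 73.4, 146 and 250 FPKM in wildtype and at 70.4, 91.0 and 74.3 FPKM in Gas2l3 -/- replicates (log2 fold change −0.83, SE 0.44, adjusted p = 0.966, limma). As deposited, wildtype replicate 3 was its highest and Gas2l3 -/- replicate 1 its lowest library, as for Hspb1. Once the GC and length trends were taken out, Hspb6 was at −0.65 and Hspb2 at −0.36, beside −0.21 for Hspb1. With the replicate block added to that setting, the adjusted p of Hspb6 was 0.394 (limma). Hspb8, the partner of BAG3, averaged 51.2 ± 21.1 FPKM (SD, n = 3) in wildtype and 49.3 ± 6.63 FPKM in Gas2l3 -/- hearts, so that its FPKM mean was slightly lower while its log2 fold change was 0.029. The lens gene Cryaa had at most 1 read in a library.

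In the other groups the 2 smallest p of each list also fell short of a call. Of 14 J-domain genes, 12 had higher log2 means, beside 5937 of the 12121 genes tested, among them Dnaja4 (log2 fold change 0.39, SE 0.28) and Dnaja1 (0.46, SE 0.34), which deliver clients to HSP70. Wildtype replicate 3 was the lowest library for both, and after the GC and length trends were taken out Dnaja1 was at 0.25, Dnaja4 at 0.33 and the list median moved from 0.18 to 0.064. Of 10 chaperonin genes, 7 had higher log2 means, with Tcp1 at 0.51 (SE 0.39) and Cct4 at 0.49 (SE 0.37), both subunits of the ring that folds actin and tubulin. Tcp1 was at 133, 123 and 54.9 FPKM in wildtype and at 132, 153.5 and 129 FPKM in Gas2l3 -/- replicates, so that wildtype replicate 3 alone was low. Without the trends Tcp1 was at 0.26, Cct4 at 0.30 and the list median at 0.097. In the HSP90 list Chordc1 was at 0.56 (SE 0.37). Hspa13 and Hspa4l of the HSP70 list were at 0.33 (SE 0.33) and −0.15 (SE 0.27). Bag6 and Hspbp1 were at −0.53 (SE 0.36) and −0.45 (SE 0.42). The filamin gene Flnc and Synpo2, a BAG3 partner, were at −0.43 (SE 0.43) and −0.21 (SE 0.24), and lower means were found for 4 of 4 genes of that list. Without the trends Chordc1 was at 0.28, Bag6 at −0.24, Hspbp1 at −0.17, Flnc at −0.10 and Synpo2 at −0.27. Hspa13 was then at 0.10 and Hspa4l at −0.39.

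Of the heat shock factors, Hsf1 and Hsf2 were tested, while Hsf4 (0.422 and 0.577 FPKM on average in wildtype and Gas2l3 -/- hearts) and Hsf5 (0.0105 and 0.0413 FPKM) were under the minimum. Hsf1 was at 20.7, 30.7 and 55.9 FPKM in wildtype and at 22.2, 27.8 and 23.4 FPKM in Gas2l3 -/- replicates, which limma put at a log2 fold change of −0.43 with an SE of 0.37 and an adjusted p of 0.966. Wildtype replicate 3 was again the highest. Hsf2 was at −0.11 (SE 0.32). Once the GC and length trends were taken out, Hsf1 was at −0.32 and Hsf2 at −0.40. Immediate early genes, which respond within minutes to handling and other stimuli, are given beside these: of 10 tested, 0 were called, 1 had an unadjusted p under 0.05 and 8 had lower means, with Atf3 at 15.4 ± 3.17 FPKM (SD, n = 3) in wildtype and 9.49 ± 1.54 FPKM in Gas2l3 -/- hearts (log2 fold change −0.67, adjusted p = 0.966, limma) and Egr1 at 0.37 (SE 0.27). Wildtype replicate 3 was the highest library for several of them, with Ier2 at 18.0, 28.0 and 68.3 FPKM and Ier3 at 34.7, 39.9 and 102 FPKM in wildtype replicates 1, 2 and 3. After the trends were taken out, 5 of the 10 had lower means and the list median moved from −0.21 to 0.025. Atf3 was then at −0.62 and Egr1 at 0.59.

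**Figure D4:**
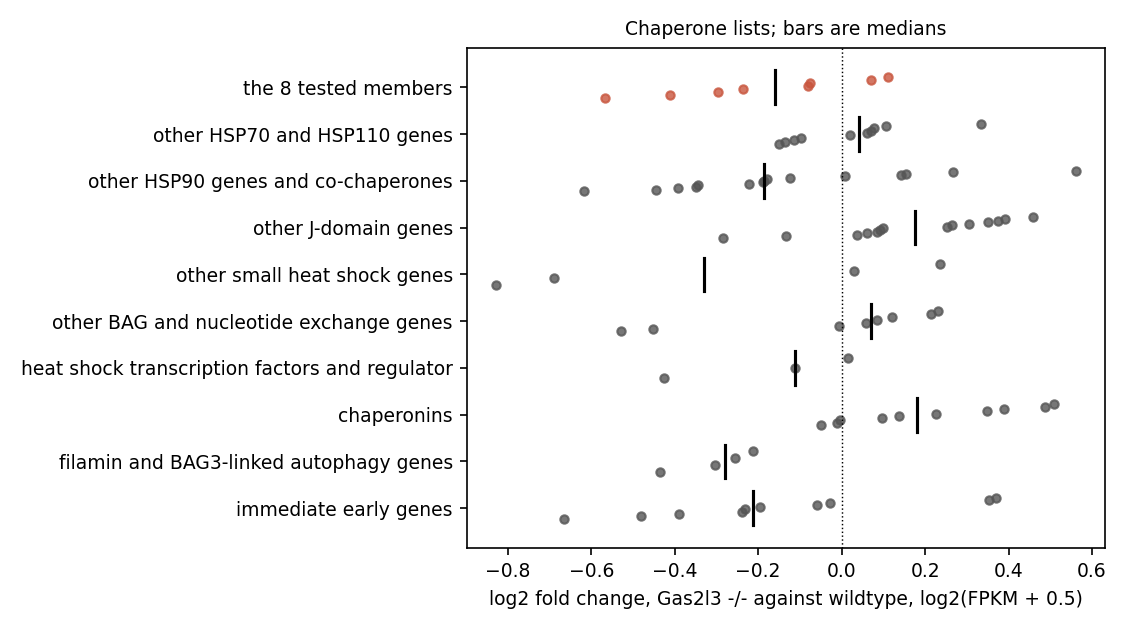
Log2 fold change, Gas2l3 -/- against wildtype, of each tested gene of the members (red), of 8 other chaperone lists and of the immediate early genes (grey), with a bar at each list's median. Medians of the J-domain and chaperonin genes lie at 0.18, those of the members and of the other small heat shock genes at −0.16 and −0.33, and 0 genes are called.

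With 0.05 as the threshold after adjustment, the authors' own comparison called none of the 10 members. All 10 shared the value 0.998 after adjustment, and so did Gas2l3. How many of all genes passed there was not counted, so the absence of calls does not set the members apart. Among the 10 members, Hspb1 had the lowest value in the authors' deposited table, a log2 fold change of −0.49 (SE 0.27, p = 0.0705, adjusted p = 0.998). The authors' deposited table also covers the low copies, with Hspb1 followed by Cryab at −0.37, and with Hspa1b at 0.27 and Hspa1a at −0.12.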

How the data were processed

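Poly(A) RNA libraries from heart, 3 per group, were used. Gene values deposited by the authors are FPKM, per the file headers, beside their own table of log2 fold changes and p-values. The submitters' processing notes list mm10, DESeq2 and FastQC; for the aligner, counter, annotation and strand setting, nothing was found in the labels or headers. Multiplying out the deposited scaling returned whole reads for 94235 of 94235 values above 0 (within 0.01).

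Groups were compared with limma (version 3.58.1, R 4.3.3; eBayes with an intensity trend, two-sided) on log2(FPKM + 0.5), for genes with 1 FPKM or more in at least 3 libraries, with Benjamini-Hochberg adjustment over all 12121. Single values were compared by exact permutation (scipy 1.17.1). The members and lists were chosen with earlier results of these data known. Named were all members and the 3 genes of most similar profile. Also named were the 2 tested genes of smallest p in each other chaperone list and among the immediate early genes. Cell type lists are given by medians and by their genes at an unadjusted p under 0.05. Same-numbered libraries of both groups deviated together (r = 0.472, 0.443 and 0.186), while r ran from −0.396 to 0.0715 for unlike numbers. The GC and length trends were left in for these r. Correlations with GC content in wildtype and Gas2l3 -/- were −0.474 and −0.481 for number 1 and −0.0709 and −0.133 for number 2. For number 3 they were 0.702 and −0.159. Pairs and shared library trends cannot be told apart by these r, and the labels give a number and nothing more. The main fit and the exact tests did not pair libraries by number. A block by replicate number was fitted as an alternative. Trends on GC content (GENCODE M21, longest transcript, 96.6% of tested genes) and length were taken out by loess (span 0.3). Alternatives covered pseudocount, filter, scaling, block, weights, voom and leaving out each library. The limma step was run on simulated data with independent noise and known changes larger than those of the members. The simulation held no GC trends and no shared deviations of same-numbered libraries, so it does not show how the fit behaves with them.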

Additional observations from a re-analysis of the deposited data

How the results depend on the processing

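Of 20 alternatives, 1 called any member. With the replicate block 0 genes and 0 members were called, so the pairing changed no call on the values as deposited, though 729 genes against 394 had an unadjusted p under 0.05. Removing the GC and length trends called 1 gene, Ppp1r1b (adjusted p = 0.0401, limma), and 0 members, with 917 genes at such an unadjusted p; adding the replicate block ended that call (0 genes, smallest adjusted p = 0.0577). Library weights by limma's default algorithm stopped without converging, at weights from 0.0979 (wildtype replicate 3) to 18.1 (wildtype replicate 2). They called 5038 of the 12121 tested genes, and 3 of the 8 tested members (Hspb1, Hspb7 and Cryab, lower). Gene-by-gene weights, chosen after seeing the data, called 2 genes, Ppp1r1b and Mir6981, and 0 members. Leaving out each library in turn called 0 genes and 0 members, with 0 or 1 member at an unadjusted p under 0.05.

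Hspb1, Hspb7, Cryab and Bag3 kept lower means in each of 19 alternatives that give a fold change. Rescaling to a common total, which moved the median of all tested genes to 0.15, gave 0.093 for Dnajb1 and 0.096 for Hsph1. Other turns of sign were: with trends removed, with and without the replicate block, Hsp90aa1 at −0.11 and Hspa8 at −0.088; with default weights, Hsp90aa1 at −0.33 and Hspa8 at −0.0019; with gene-by-gene weights, Hsp90aa1 at −0.25. With 1 library left out, values ran from −0.20 to 0.023 for Dnajb1, −0.23 to 0.34 for Hsp90aa1 and −0.0025 to 0.13 for Hspa8. The cause of these turns was not tested. Depth limits Hspa1a and Hspa1b, at 4 to 21 reads per library, and how reads shared by the copies were counted is not known.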
